A study of Homo sapiens with 12 samples.

Results

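Respiratory complex I is described here through the 37 nuclear genes that encode its subunits, out of 23106 gene symbols counted. The members were chosen by symbol alone, as NDUFA, NDUFB, NDUFC, NDUFS or NDUFV followed by digits, with NDUFAB1 added. NDUFA4 and NDUFA4L2 and the NDUFAF assembly factors were left out. All 37 were present in the count tables, and all 37 passed the filter on low counts, with 173 counts or more in every library.

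The cells were RCC4, an established line of human clear cell renal carcinoma (ccRCC) that lacks functional VHL, so that the α subunits of the hypoxia-inducible factors HIF-1 and HIF-2 are not degraded when oxygen is present. They were transfected for 48 h with siRNA pools at 2 nM in all. Control siRNA was used at 2 nM, HIF1A siRNA or HIF2A siRNA (which targets EPAS1, the HIF-2α gene) at 1 nM topped up with 1 nM control siRNA, and the double knockdown combined 1 nM of each HIF pool without control siRNA. Each of the 4 groups had 3 replicates, giving 12 libraries of polyadenylated RNA from 1 cell line. The study used the control and single knockdown libraries to separate genes that depend on HIF-1 from those that depend on HIF-2, and left its double knockdown libraries out.

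Complex I is the entry point of electrons into the respiratory chain. It oxidizes NADH in the N module, passes the electrons through the Q module to ubiquinone, and uses the energy to pump protons across the inner mitochondrial membrane in a proximal and a distal part of its membrane arm. Catalysis rests on conserved core subunits, some encoded in mitochondrial DNA and some in the nucleus, and the remaining accessory subunits stabilize the enzyme. HIF-1 is known for directing cells away from mitochondrial respiration and toward glycolysis, and clear cell renal carcinomas are known for low respiratory capacity. Transcription of nuclear respiratory genes is known to involve NRF1, the ETS factor GABP, YY1 and coactivators of the PGC-1 family acting with ERRα.

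The libraries held 13263168 to 20451433 counts, with normalization factors from 0.980 to 1.02. HIF1A fell by 2.39 on the log2 scale with HIF1A siRNA, from 120, 58.2 and 112 CPM (counts scaled to the normalized library total) with control siRNA to 15, 17.8 and 22.2 CPM (replicates 1, 2 and 3 throughout), and lay at 24.2, 32.2 and 29.7 CPM in the double knockdown (edgeR adjusted p = 1.3e-05 and 8.1e-05 with Benjamini-Hochberg). EPAS1 fell by 3.97 with HIF2A siRNA, from 163, 138 and 171 to 9.16, 11.9 and 9.33 CPM, and lay at 8.54, 11.3 and 7.01 CPM in the double knockdown (adjusted p = 2.4e-08 and 3.8e-09). With HIF1A siRNA alone EPAS1 lay at 101, 107 and 134 CPM, below control in 3 of 3 pairs and without overlap, at a log2 value of -0.47 (edgeR adjusted p = 0.28). CA9, a carbonic anhydrase and well known HIF-1 target, went from 252, 283 and 143 CPM to 26.2, 20.7 and 9.15 CPM with HIF1A siRNA and to 16.3, 16.0 and 6.77 CPM in the double knockdown. With HIF2A siRNA CA9 lay at 312, 405 and 197 CPM. A median of 1 CPM was exceeded by 8 of 8 markers of renal carcinoma epithelium, 1 of 3 of leukocytes, 0 of 3 of endothelium and 3 of 4 of pericytes and fibroblasts. The leukocyte marker above it was CD68 (32.6 to 65.1 CPM), and the pericyte and fibroblast markers were COL1A1 (16.6 to 71.1 CPM), RGS5 (1.73 to 10.4 CPM) and PDGFRB (0.647 to 8.58 CPM). PTPRC, CD3E, PECAM1 and COL3A1 had no count in any library. All libraries were made from the RCC4 line, which the study authenticated, so that these markers need not stand for other cells. The source of their counts was not tested. Summed, the epithelial markers took 4090 to 6850 CPM, the leukocyte list 32.6 to 65.1 CPM and the list for pericytes and fibroblasts 21.4 to 84.5 CPM. CDH6 and KRT18, on the epithelial list, rose in the double knockdown by 1.36 and 0.49 on the log2 scale (adjusted p = 0.00016 and 0.027).

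The subunit genes were expressed at middle to high levels in cells with control siRNA. Mean CPM ranged from 18.4 for NDUFB1 to 293 for NDUFS5, and the 37 genes together took 0.234 to 0.437% of the counts of a library. To compare genes with each other, CPM was divided by the length of each gene's reference transcript in kilobases. NDUFS5, an accessory subunit at the foot of the membrane arm, was highest on this scale, at 591 ± 207 CPM per kilobase (SD, n = 3), or 285, 399 and 194 CPM. Its level lay at the 99.2 percentile of the genes tested. NDUFA13 followed at 244 ± 60.8 CPM per kilobase, or 129, 158 and 94.5 CPM. This subunit is also known as GRIM-19. At the lower end stood NDUFS1, the largest iron-sulfur core subunit of the N module, at 6.91 ± 1.55 CPM per kilobase, or 80.2, 62.7 and 98.7 CPM, and NDUFV3, an N module accessory subunit, at 7.61 ± 1.72 CPM per kilobase, or 43.0, 53.7 and 34.0 CPM. The SDs of the 2 lower genes overlapped, so that their order is not resolved. The per-length scale depends on the annotated ends, and 6 members (NDUFA5, NDUFA9, NDUFA10, NDUFB5, NDUFS1 and NDUFV3) have reference transcripts over 4000 bases, so that a lower level per length there cannot be told apart from use of a shorter transcript.

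The start regions of the members were searched for motifs of the factors named above, in windows from 250 bases before to 50 bases after the start in RefSeq (GRCh38.p14). A window was found for 32 of the 37 genes. These 32 genes had 39 windows, and a gene counted if any of its windows matched. The share of all windows was taken window by window, over 35116. The shares are therefore not like for like, and that of the members is favored. Both strands were read. The NRF1 palindrome GCGCANGCGC was in 18.8% of the 32 genes (6 genes) and in 5.78% of all windows. The ETS core CCGGAAG, bound by GABP, was in 15.6% (5 genes) and 10.3%, and the YY1 core AAGATGG in 28.1% (9 genes) and 5.84%. In the 250 bases before the start alone, the YY1 core was in 2 of the 32 genes (6.25%) and in 3.7% of all windows. The hypoxia response core ACGTG was in 28.1% (9 genes) and in 21.4% of all windows. These are matches of letters and not sites shown to be bound. Stretches of 30 bases around matches are printed for NRF1 and for the hypoxia response core, with the matching bases in capitals, 5′ to 3′ on the strand of the gene. The first 4 hold the NRF1 palindrome, and the last 4 the hypoxia response core in members whose values are given below.
NDUFA12, chr12:95003794-95003823, minus strand: acctagctctGCGCACGCGCagagccacca
NDUFB4, chr3:120596167-120596196, plus strand: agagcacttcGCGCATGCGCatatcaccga
NDUFA3, chr19:54102772-54102801, plus strand: gtgctccaggGCGCACGCGCagccctggga
NDUFA9, chr12:4649024-4649053, plus strand: ttcttggttaGCGCTTGCGCagacaggcga
NDUFB8, chr10:100529907-100529936, minus strand: ggcttcctccgtCACGTttggcccggctca
NDUFS3, chr11:47578970-47578999, plus strand: cgcttccggctcCACGTccgcccggaagaa
NDUFA7, chr19:8321478-8321507, minus strand: gcggagaggagtCACGTgcttcggggagag
NDUFA10, chr2:240025524-240025553, minus strand: gcatgctgccccCACGTtcacctccaactc
Beside its hypoxia response core, NDUFS3 carries the ETS core on either side within the window, once on each strand.

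Summed over the 37 genes, the level with control siRNA was 2956, 3847 and 2392 CPM, and 3065 ± 734 CPM on average (SD, n = 3). The sum was 3923, 3636 and 2345 CPM with HIF1A siRNA and 3676, 3648 and 2373 CPM with HIF2A siRNA. In the double knockdown it was 3596, 4362 and 2538 CPM, on average 3499 ± 916 CPM. All 4 groups overlapped, and replicate 3 was the lowest library of each. The spread between replicates of 1 group exceeded the distance between the group means. Between libraries of the same replicate number, each double knockdown sum lay above its control. With either single siRNA the sum lay above control in the pair of replicates 1 and below or near it in the others. These differences between sums were not tested.

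**Figure D1:**
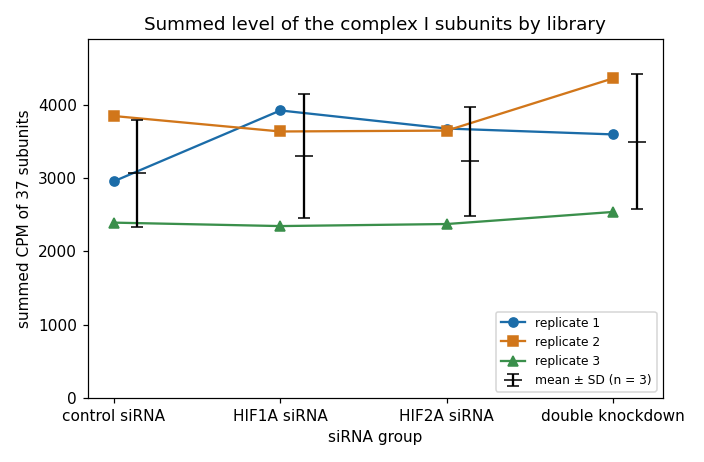
The plot gives the summed CPM of the 37 subunit genes (vertical axis, from 0) in each siRNA group, with lines joining libraries of the same replicate number and black bars for mean ± SD of 3 replicates. Replicate 3 lay at 2345 to 2538 CPM in every group, below all libraries of replicates 1 and 2.

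Replicate number separated the subunit genes more than any siRNA did. With the fit of all 12 libraries, the quasi-likelihood F test of edgeR for replicate number, chosen after the data were seen, gave an adjusted p under 0.05 (Benjamini-Hochberg) for 31 of the 37, where 50.3% of all genes tested passed. The median share of the variance of log2 CPM that lay between replicate numbers was 71.3% for the members and 46.4% for all genes, against 10.0% and 19.2% between siRNA groups. The share between replicate numbers exceeded the share between siRNA groups for 36 of the 37, and for 67.8% of all genes. In replicate 3, 35 of the 37 were lower than the mean of replicates 1 and 2, with a median log2 difference of -0.61 over the members and of -0.01 over all genes. NDUFS1, the core subunit of the N module named above, was higher in replicate 3 (0.43). In all 4 groups, 29 of the 37 were lowest in replicate 3.

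The genes at the ends of this range show the contrast. NDUFAB1, the mitochondrial acyl carrier protein that is bound to the complex, had 92.6% of its variance between replicate numbers, with 64.0, 80 and 44.7 CPM with control siRNA, 74.7, 76.8 and 48.4 CPM with HIF1A siRNA, 72.8, 84.2 and 42.7 CPM with HIF2A siRNA and 71.1, 91.5 and 52.4 CPM in the double knockdown. NDUFS6, a zinc-binding N module subunit, had 91.6%, and its values were 93.4, 125 and 53.4 CPM, 143, 108 and 48.0 CPM, 132, 105 and 46.7 CPM, and 126, 148 and 52.4 CPM in the same order of groups. Both were lowest in replicate 3 of each group, with the 4 groups overlapping. The smallest shares belonged to NDUFB5, a distal arm subunit (23.2%), and NDUFA12, an N module subunit (29.2%). NDUFB5 lay within a narrow range, at 47.2, 40.3 and 36.5 CPM, 47.7, 51.7 and 45.0 CPM, 39.4, 46.4 and 41.5 CPM, and 48.4, 46.3 and 43.5 CPM. NDUFA12 had 76.5, 108 and 68.9 CPM with control siRNA, 125, 99.0 and 71.8 CPM with HIF1A siRNA, 104, 50.4 and 77.2 CPM with HIF2A siRNA and 102, 121 and 67.4 CPM in the double knockdown. Replicate 2 of HIF2A siRNA was the lowest of the 12 libraries for NDUFA12. In that library NDUFV2 (87.9 CPM), NDUFA6 (60.9 CPM) and NDUFB4 (63.3 CPM) were also below the other replicate 2 libraries, while NDUFV1 (230 CPM) and NDUFB8 (192 CPM) were above them.

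**Figure D2:**
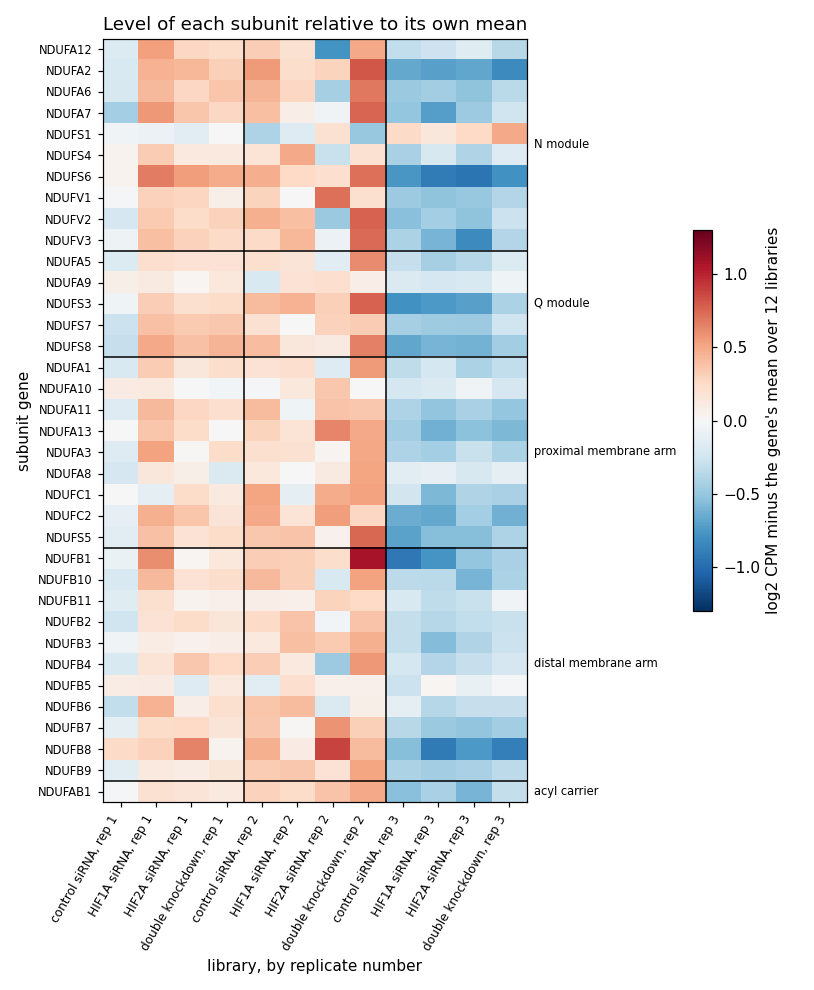
Each row is 1 of 36 subunit genes, grouped by module, and each column 1 library, ordered by replicate number and then by siRNA group. Color gives log2 CPM minus the gene's mean over the 12 libraries. Most rows are blue across the 4 libraries of replicate 3, with a median log2 difference of -0.61 from replicates 1 and 2, and NDUFS1 goes the other way.

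Short transcripts are common among the members, and length moved with this replicate difference. The median transcript was 691 bases long, and 26 of the 37 (70.3%) were under 1000 bases, compared with 5.64% of all genes with a matched transcript. All 26 genes under 1000 bases were lower in replicate 3 (median -0.65, from -1.27 to -0.22), as were 9 of the 11 longer ones (median -0.40, from -0.89 to 0.43). Across genes, the replicate 3 difference had a Spearman rho with length of 0.344 over the 37 members and of 0.530 over 11695 genes, and a rho with GC content of -0.431 and -0.288. Genes share the libraries and are not independent, so that these are descriptions only. When a trend with length and GC was removed in each library, replicate number passed for 16 of the 37 in place of 31, and for 44.2% of all genes. Without replicate 3 it passed for 0 of the 37 (4 at an unadjusted p under 0.05), and for 0.0231% of all genes. In bulk RNA, fewer cells that express a gene and less RNA per cell cannot be told apart.

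**Figure D3:**
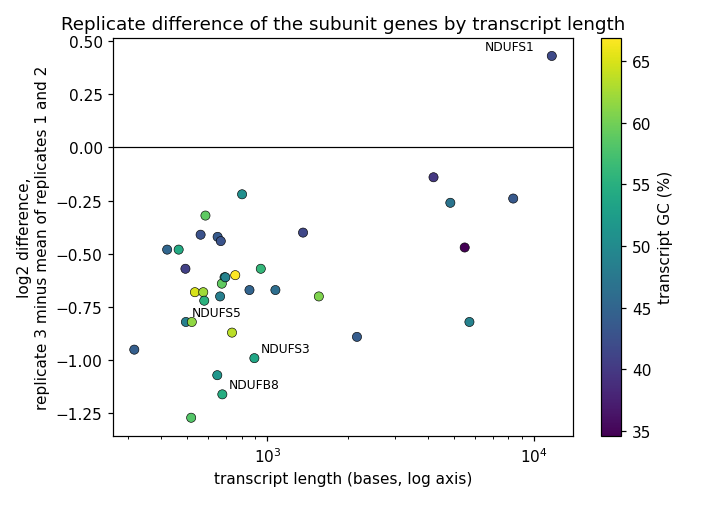
Each point is 1 of 36 genes, with the length of its transcript in bases on a log axis, the log2 difference of replicate 3 from the mean of replicates 1 and 2 on the vertical axis, and transcript GC content as color. All 26 genes under 1000 bases lie below 0, and NDUFS1 lies above it.

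Lowering of both HIF-α mRNAs was compared with control siRNA first, since more genes passed the test there than with either siRNA alone. No subunit gene passed an adjusted p of 0.05 in the double knockdown (0 of 37, edgeR quasi-likelihood test, Benjamini-Hochberg over 13000 genes), while 10.3% of all genes tested did. At an unadjusted p under 0.05, 4 members were higher and none lower. Of the 13000 genes tested 25.3% passed, 1496 of them higher and 1795 lower. Fitted values were above 0 for 33 of the 37, with a median log2 fold change of 0.180, compared with 0.005 over all genes. The members' median was 0.084 with the length and GC trend removed (0.032 over all genes) and 0.096 without control siRNA replicate 1 (0.014 over all genes). Higher values in all 3 pairs of same-numbered libraries were found for 21 of the 37 members, against 26.1% of all genes, and lower values for 1, against 25.4%. The median over the members was 0.30 in the pair of replicates 1, 0.20 in that of replicates 2 and 0.03 in that of replicates 3. The double knockdown and control libraries overlapped for all 37, whereas 15.6% of all genes had groups that did not. Overlap, here and in the comparisons below, takes no account of the pairing by replicate number. Since replicate 3 was lowest for most members in each group, groups can overlap even where all 3 pairs change alike.

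The calls depended on which libraries entered the fit. With the 6 libraries of the 2 groups alone, 8 of the 37 passed, all higher: NDUFA5, NDUFA6, NDUFA7, NDUFB1, NDUFS3, NDUFS5, NDUFS8 and NDUFV2. In that fit 20.8% of all genes passed, close to the members' share. DESeq2 called NDUFS3 alone, with 14.2% of all genes called. Without HIF2A siRNA replicate 2, NDUFS3, NDUFS5 and NDUFV2 passed, with 17.5% of all genes. These shares of all genes count both directions, whereas every member called was higher, so that they are not like for like.

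By module, the fitted median was 0.299 for the 6 Q module genes and 0.200 for the 10 N module genes, with all of either module above 0. It was 0.164 for the 11 genes of the distal arm (9 above 0) and 0.058 for the 9 genes of the proximal arm (7 above 0). The 7 nuclear core subunits had a median of 0.297. None of these module members passed the test across all genes, and the modules were not tested against each other.

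NDUFB1, a small accessory subunit of the distal arm, had the highest fitted value. It went from 19.2, 25.4 and 10.7 CPM to 22.4, 42.7 and 15.2 CPM, a log2 fold change of 0.51 (SE 0.20, edgeR adjusted p = 0.12 with Benjamini-Hochberg), with each double knockdown library above its own control. NDUFA7, an N module subunit, went from 27.0, 47.9 and 25.8 CPM to 44.3, 62.0 and 30.7 CPM, a log2 fold change of 0.42 (SE 0.21, adjusted p = 0.24), higher in 3 of 3 pairs. For both genes the ranges of the groups overlapped, and replicate 2 was the highest library of either group. NDUFS3, a core subunit of the Q module, had 70.5, 97.3 and 42.5 CPM with control siRNA and 86.5, 125 and 55.0 CPM in the double knockdown. Its fold change was nearly equal in the 3 pairs (0.29, 0.36 and 0.37), with a fitted log2 value of 0.35 (SE 0.11) and an adjusted p of 0.071. NDUFS5 showed the same regularity, at 369, 524 and 237 CPM in the double knockdown, with 0.37, 0.39 and 0.28 in the pairs and an adjusted p of 0.094. NDUFS8, a core subunit that carries iron-sulfur clusters in the Q module, went from 67.1, 109 and 51.6 to 112, 130 and 60.2 CPM (log2 fold change 0.38, SE 0.16, adjusted p = 0.15). NDUFS3, NDUFS5 and NDUFS8 are given because their unadjusted p was under 0.05, a choice that favors members with similar pairs.

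At the other end stood NDUFB8, an accessory subunit of the distal arm whose protein is widely used as a marker of assembled complex I. It had 124, 144 and 70.9 CPM with control siRNA and 108, 139 and 56.5 CPM in the double knockdown, lower in 3 of 3 pairs, with a fitted log2 value of -0.19 (SE 0.13, adjusted p = 0.40). NDUFA10, a proximal arm subunit, had 95.8, 87.8 and 75.6 CPM and then 86.8, 89.1 and 76.3 CPM. Its fitted value was -0.04 (SE 0.11), and it was above 0 when the length and GC trend was removed (0.06), without replicate 1 (0.01) and without control siRNA replicate 1 (0.03). The 95% intervals of the 37 members ran from -0.48 to 0.93, so that a change of 1 on the log2 scale lay outside all of them, and for 21 of the 37 a change of 0.5 did too.

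**Figure D4:**
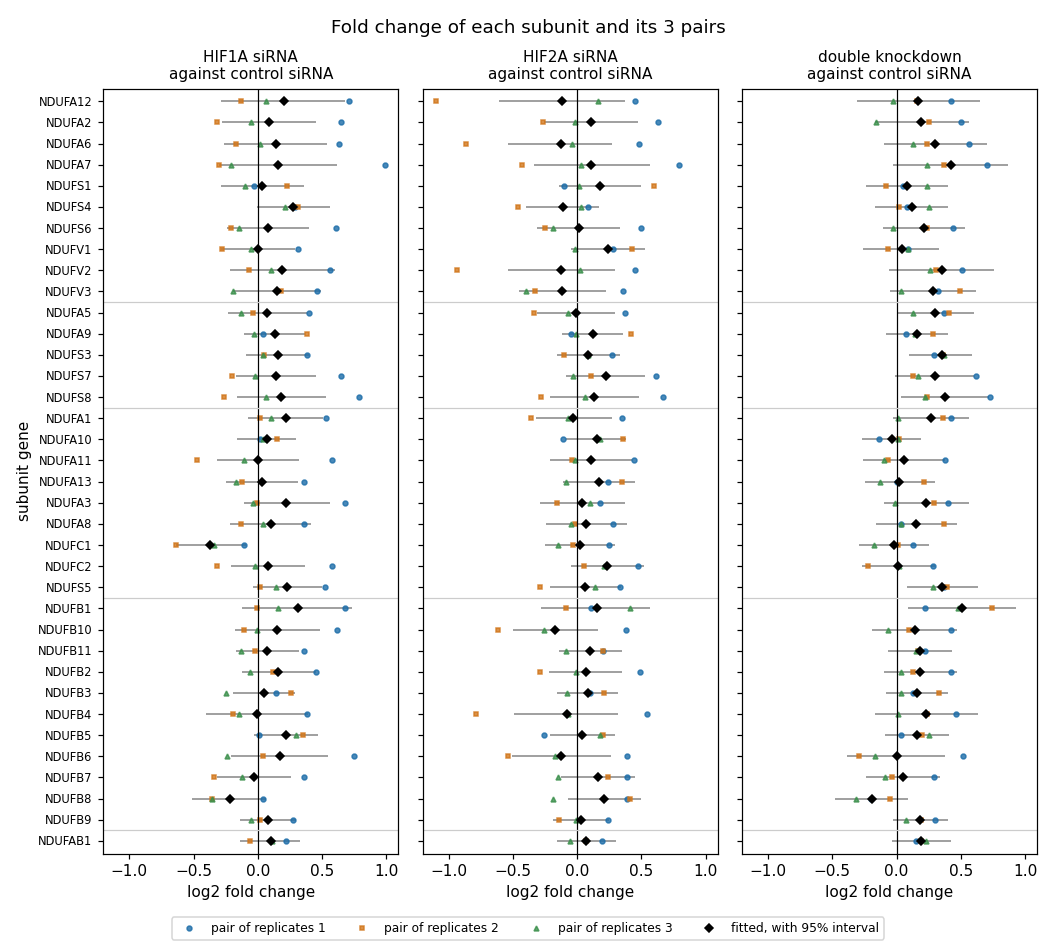
Each panel gives 1 comparison with control siRNA, with the fitted log2 fold change of 36 subunit genes (black diamond), its 95% interval (grey line) and the log2 ratio in each pair of same-numbered libraries (colored symbols). In the pair of replicates 1 most symbols lie to the right of 0 in all 3 panels, and in the double knockdown most diamonds lie above 0, up to 0.51 for NDUFB1.

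HIF1A siRNA left the subunit genes close to control in replicates 2 and 3 and above it in replicate 1. None passed the adjusted threshold with edgeR (0 of 37) or DESeq2, against 1.39% of all genes with edgeR. Only NDUFC1, which was lower, had an unadjusted p under 0.05, where 8.61% of all genes passed. The median log2 fold change was 0.097 (33 of 37 above 0), compared with 0.003 over all genes, and its direction rested on replicate 1. Over the members the pair medians were 0.40, -0.06 and -0.04 in replicates 1, 2 and 3, and without replicate 1 the fitted median was -0.037, and -0.005 without control siRNA replicate 1. In all 3 pairs 7 members were higher, against 14.8% of all genes, and 1 lower, against 15.3%. The groups overlapped for all 37, and did not for 7.10% of all genes. The 95% intervals ran from -0.64 to 0.73.

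NDUFC1, a small accessory subunit of the membrane arm, went from 42.8, 61.5 and 36.5 CPM with control siRNA to 39.7, 39.3 and 28.7 CPM with HIF1A siRNA, lower in 3 of 3 pairs, with a log2 fold change of -0.37 (SE 0.13, edgeR adjusted p = 0.31 with Benjamini-Hochberg). In the double knockdown it had 47.0, 61.8 and 32.1 CPM, close to control. NDUFB8 had 128, 112 and 55.3 CPM with HIF1A siRNA, a fitted value of -0.22 (SE 0.13, adjusted p = 0.72), lower in 2 of 3 pairs. NDUFB1 had the highest fitted value, 0.31 (SE 0.20, adjusted p = 0.75), with 30.9, 25.3 and 12 CPM. It was followed by NDUFS4, an N module subunit known from inherited complex I deficiency, which went from 38.4, 42.1 and 27.8 to 47.0, 52.4 and 32.3 CPM, higher in 3 of 3 pairs (log2 fold change 0.27, SE 0.13, adjusted p = 0.60).

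With HIF2A siRNA the subunit genes again lay above control in the pair of replicates 1 and near it in the others. No member passed with edgeR (0 of 37) or DESeq2, where 0.200% of all genes passed with edgeR, and none had an unadjusted p under 0.05, where 6.68% of all genes did. The fitted median was 0.073 (27 of 37 above 0), with pair medians of 0.35, -0.10 and -0.02, and it was -0.052 without control siRNA replicate 1 and -0.014 without replicate 1. Higher values in all 3 pairs were found for 1 member, against 10.9% of all genes, and lower values for none, against 12.1%. The groups overlapped for all 37, and did not for 5.31% of all genes. The N module had a fitted median of -0.051 with a pair median of -0.38 in replicates 2, the pair with the library that stood apart.

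NDUFV1, the core subunit that binds NADH, had the highest fitted value, 0.24 (SE 0.14, adjusted p = 0.78), from 139, 171 and 101 CPM with control siRNA to 170, 230 and 99.7 CPM with HIF2A siRNA. NDUFC2, a membrane arm subunit, went from 119, 181 and 81.8 to 165, 187 and 94.5 CPM, higher in 3 of 3 pairs (log2 fold change 0.23, SE 0.13, adjusted p = 0.79). The lowest fitted values belonged to NDUFB10, a distal arm subunit, and NDUFA6, an N module subunit. NDUFB10 had 78.0, 120 and 70.5 CPM with control siRNA and 102, 78.2 and 58.9 CPM with HIF2A siRNA, a log2 value of -0.17 (SE 0.16), which was 0.05 without replicate 2. NDUFA6 had 71.3, 112 and 59.0 CPM and then 99.3, 60.9 and 57.3 CPM. Its log2 value of -0.13 (SE 0.19) was above 0 without replicate 2 (0.20), and also without that replicate's HIF2A siRNA library (0.14) or control library (0.05). The 3 comparisons with control siRNA share their control libraries, and control siRNA replicate 1, at 2956 CPM, was the lowest of the replicate 1 libraries in summed level.

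The remaining comparisons asked whether 1 HIF siRNA acted on top of the other. HIF1A mRNA lay higher in the double knockdown than with HIF1A siRNA alone in 3 of 3 pairs, by 0.66 on the log2 scale (edgeR adjusted p = 0.18), so that its depletion may differ between these groups. Against HIF1A siRNA, 0 of the 37 passed in the double knockdown (1.40% of all genes) and NDUFC1 alone had an unadjusted p under 0.05 (12.2% of all genes), at a log2 value of 0.35 (SE 0.13, edgeR adjusted p = 0.25 with Benjamini-Hochberg). Against HIF2A siRNA, 0 of the 37 passed (4.0% of all genes), with 7 members at an unadjusted p under 0.05 (17.8% of all genes). Of these, NDUFS3, NDUFS5, NDUFA5, NDUFV3, NDUFA6 and NDUFV2 were higher (0.26 to 0.48) and NDUFB8 lower (-0.41). For the 6 higher members the ratio was largest in the pair of replicates 2, from 0.46 to 1.25.

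HIF1A siRNA was also set directly against HIF2A siRNA, where 0 of the 37 passed (1.92% of all genes) and 3 had an unadjusted p under 0.05 (12.1% of all genes). NDUFB8 was lower with HIF1A siRNA by -0.44 (SE 0.13, edgeR adjusted p = 0.14 with Benjamini-Hochberg) and by -0.35, -0.78 and -0.17 in the pairs. NDUFC1 was lower by -0.39 (SE 0.13, adjusted p = 0.19), and NDUFS4 higher by 0.39 (SE 0.13, adjusted p = 0.22). NDUFB8 and NDUFC1 passed in 1 alternative each, removal of the length and GC trend: NDUFB8 in the double knockdown against HIF2A siRNA (-0.50, adjusted p = 0.034, with 6.18% of all genes) and NDUFC1 with HIF1A siRNA against HIF2A siRNA (-0.49, adjusted p = 0.032, with 2.75% of all genes). DESeq2 called 0 of the 37 in these 3 comparisons and in the interaction. The interaction of the siRNAs passed for 0 of the 37, as for 0% of all genes, and no member had an unadjusted p under 0.05, where 2.45% of all genes did. The groups overlapped for all 37 members in each of these 3 comparisons, and did not for 8.38% of all genes against HIF1A siRNA, 9.89% against HIF2A siRNA and 7.89% between the HIF siRNAs.

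Genes that act on complex I from outside showed changes that passed the test. Of 17 assembly factors, 3 rose in the double knockdown and none fell, where 3.86% of all genes rose. All 17 had fitted values above 0 (median 0.202), as did 50.6% of all genes. NDUFAF4, an early-acting assembly factor, went from 32.4, 35.8 and 28.6 CPM to 50.8, 58.6 and 40.5 CPM (log2 fold change 0.62, SE 0.13, edgeR adjusted p = 0.0059 with Benjamini-Hochberg). ECSIT, a component of the assembly complex of the membrane arm, rose from 31.4, 41.2 and 27.2 to 52.1, 55.1 and 40.5 CPM (0.57, SE 0.12, adjusted p = 0.0082). FOXRED1 rose from 31.6, 43.6 and 24.8 to 47.1, 56.9 and 32.5 CPM (0.45, SE 0.13, adjusted p = 0.040). The double knockdown libraries of NDUFAF4 all lay above all control libraries, whereas the groups overlapped for ECSIT and FOXRED1. The adjusted p over 24 alternatives ranged from 0.00023 to 0.14 for NDUFAF4 and from 0.00051 to 0.38 for ECSIT, and either call was lost without replicate 1 or replicate 3, and that of ECSIT without double knockdown replicate 3. For FOXRED1 it ranged from 0.0081 to 0.66, and the call was lost in 12 of the 24, among them each one that left out replicate 1 or 3, a double knockdown or HIF1A siRNA library, control siRNA replicate 1 or 3, or HIF2A siRNA replicate 3.

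Of 10 transcriptional regulators of respiratory genes, 3 rose in the double knockdown and none fell, against the same 3.86% of all genes that rose. ESRRA, which encodes ERRα, went from 26.3, 39.7 and 22.7 CPM to 50.8, 60.3 and 40.9 CPM (log2 fold change 0.78, SE 0.16, edgeR adjusted p = 0.0047 with Benjamini-Hochberg). PPARGC1A, the coactivator PGC-1α, was a low gene and rose from 3.80, 3.71 and 2.05 to 7.58, 10.0 and 3.60 CPM (1.10, SE 0.30, adjusted p = 0.031). PPARGC1B, its paralog PGC-1β, rose from 5.33, 4.42 and 8.43 to 9.20, 9.48 and 11.6 CPM (0.77, SE 0.20, adjusted p = 0.022). All 3 were higher in 3 of 3 pairs. The adjusted p of ESRRA ranged from 5.7e-05 to 0.22 over 24 alternatives, and its call was lost without replicate 3. For PPARGC1A it ranged from 0.0061 to 0.38, and the call was lost without any replicate number and without any control or double knockdown library. For PPARGC1B it ranged from 0.0049 to 0.38, and the call was lost without any replicate number and without replicate 1 or 2 of either group.

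Among 4 genes of import and turnover, AIFM1, which supports import of respiratory subunits, rose in the double knockdown from 98.7, 90.3 and 93.5 to 130, 127 and 114 CPM (0.39, SE 0.10, edgeR adjusted p = 0.022 with Benjamini-Hochberg, from 0.0032 to 0.22 over the alternatives). This call was lost without any replicate number, without any double knockdown library and without control siRNA replicate 2 or 3. LONP1, a protease of the mitochondrial matrix and known HIF-1 target, fell with HIF1A siRNA from 338, 361 and 314 to 252, 219 and 227 CPM (-0.54, SE 0.11, adjusted p = 0.015), with no overlap between the groups. It also lay below its HIF2A siRNA level with HIF1A siRNA (-0.72, adjusted p = 0.0012) and in the double knockdown than with HIF2A siRNA (-0.48, adjusted p = 0.018). The first of these calls ranged from 0.00021 to 0.28 in adjusted p and was lost without replicate 1 or 3, without any HIF1A siRNA library and without control siRNA replicate 2 or 3. The second held in all 24 alternatives. The last ranged from 0.00086 to 0.22 and was lost without any replicate number, without HIF2A siRNA replicate 1, without double knockdown replicate 1 or 2, and in the fit of the 2 groups alone. Without the replicate block none of the 7 genes called against control in the double knockdown passed, where 1.5% of all genes did. The LONP1 calls with HIF1A siRNA against control and in the double knockdown against HIF2A siRNA were also lost without it. In the double knockdown LONP1 did not pass against control siRNA (-0.29, edgeR adjusted p = 0.092) or against HIF1A siRNA, where it lay higher (0.24, adjusted p = 0.36). With HIF2A siRNA it lay above control in 3 of 3 pairs without passing (0.18, adjusted p = 0.79), which widens both comparisons with HIF2A siRNA.

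**Figure D5:**
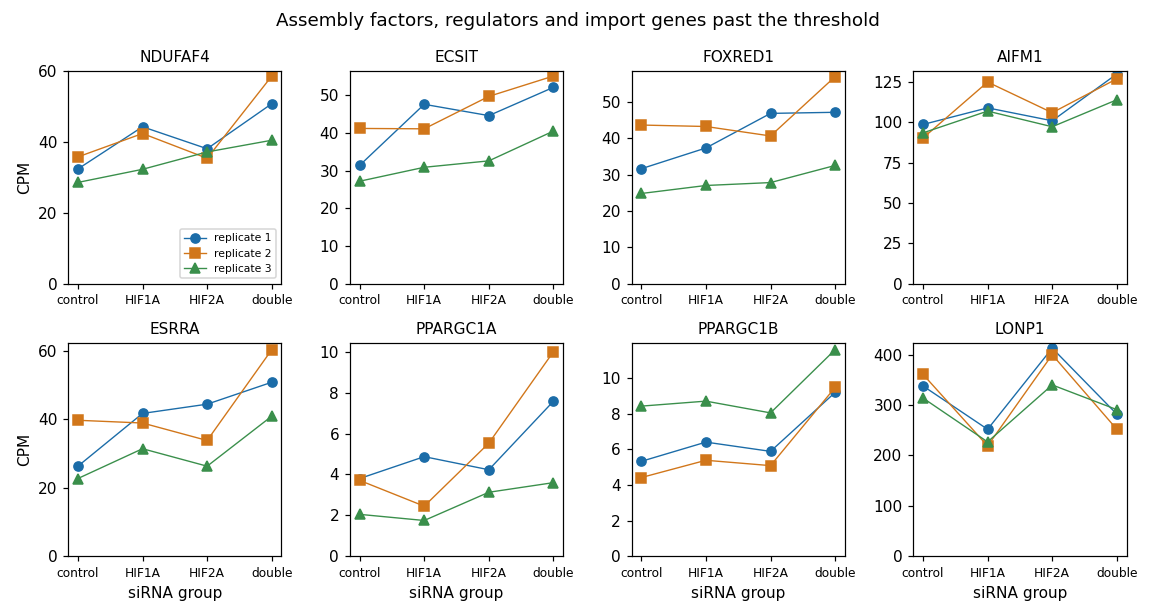
CPM (vertical axes, from 0) of 8 assembly, regulator, import and protease genes in the 4 siRNA groups, with lines joining libraries of the same replicate number. NDUFAF4, ECSIT, FOXRED1, AIFM1, ESRRA, PPARGC1A and PPARGC1B are highest in the double knockdown of each replicate number, and LONP1 is lowest with HIF1A siRNA.

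Some members are less certain as counts. The kit kept strand, but whether counting used it is not given in the sources used here. The study counted by UCSC gene definitions, while overlaps are given here in GENCODE annotation, so that the shares in the counted genes may differ. NDUFB8 shares 16.3% of its exon bases with HIF1AN on the opposite strand. NDUFC1 shares 19.5% with NAA15 on the opposite strand and 12% with MGARP on the same strand, and MGARP had at most 6 counts in a library. NDUFS3 shares 16.0% with PTPMT1 on the same strand. Larger overlaps were found for NDUFB2, with a counted gene on the opposite strand (27.9%), and, with annotated genes that are not among the counted symbols, for NDUFB8 (33.8%), NDUFA7 (32.5%) and NDUFV2 (28.4%) on the same strand and NDUFS7 (36.1%) on the opposite strand. The origin of fragments from these bases cannot be told without strand, or, on the same strand, at all. The study's methods name the intersection-strict mode of HTSeq, and fragments shared by counted genes may have been left out of the counts. Named pseudogenes are most numerous for NDUFA5 and NDUFB4, with 12 each, and fragments that match both places were removed by the authors, so that their counts may be low.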

How the data were processed

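RNA of RCC4 cells in 12 libraries, 3 in each of 4 siRNA groups taken from the sample labels, was analyzed. Per the labels and the study's methods, the authors trimmed reads with Trim Galore, aligned them to hg19 with HISAT2, removed fragments without a unique place with Picard, ran HTSeq to count fragments in genes and deposited raw counts for 23106 symbols. From these counts, edgeR 4.0.16 (R 4.3.3) was fitted to all 12 libraries with TMM factors, its expression filter (minimum count 10, minimum total 15; 13000 genes kept), the quasi-likelihood test, replicate number as a blocking term and p-values adjusted by Benjamini-Hochberg across those genes, for 7 comparisons. CPM used a prior of 0.5 in log ratios. The study's methods pair conditions by biological replicate. Deviations of same-numbered libraries from their group means correlated at 0.0991 to 0.813 across genes, and those of different numbers at -0.724 to 0.527. Replicates differed by more than sampling noise, so none was merged. The labels do not say whether replicates were grown separately, and otherwise p-values measure technical spread.

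Transcript length and GC came from GENCODE reference transcripts. The alternatives were other normalizations and filters, no replicate block, DESeq2 1.42.0, the compared groups alone, removal of a length and GC trend (splines with 5 degrees of freedom, with the block), and each replicate number or library left out, 24 in all. For comparisons without the double knockdown, the compared groups alone meant the control, HIF1A siRNA and HIF2A siRNA groups together. The members, lists and named genes were chosen with earlier results of these data known. Named members were the 2 highest and 2 lowest by fold change against control, by level per length and by share of variance between replicate numbers. Members with an unadjusted p under 0.05 in a comparison were also named, so that their values there were picked from these same data. Of the 37 members, 1 is not reported here by name or in the plots by gene, and counts and medians include it.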

Additional observations from a re-analysis of the deposited data

Results flagged for a closer look

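NDUFA10, a proximal arm subunit, drew attention because HIF1A siRNA moved it one way on its own and the opposite way on top of HIF2A siRNA in all 3 pairs. All 37 members were searched for such a reversal of either siRNA's effect, and NDUFA10 was the only member found. The share of all genes with such a reversal was not computed, so that this find cannot be judged against it. Its interaction value was -0.25 on the log2 scale (SE 0.15, edgeR adjusted p = 1.0 with Benjamini-Hochberg, unadjusted p = 0.12). With HIF1A siRNA alone NDUFA10 had 97.1, 97.5 and 77.6 CPM in replicates 1, 2 and 3, each above its control (95.8, 87.8 and 75.6 CPM). In the double knockdown it had 86.8, 89.1 and 76.3 CPM, each below HIF2A siRNA (88.6, 113 and 85.7 CPM). The test of the difference did not pass. Within groups the SD between replicates was 6.83 CPM in the double knockdown to 14.8 CPM with HIF2A siRNA. The differences in replicate 1, and that of HIF1A siRNA from control in replicate 3, were smaller than these SDs. In replicate 3 the double knockdown (76.3 CPM) and HIF2A siRNA (85.7 CPM) lay further apart.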

How the results depend on the processing

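Direction and side of the threshold were recomputed for the counts and medians of the 37 members, under 24 alternatives for the 6 comparisons of 2 groups. The setting with the compared groups alone used 2 groups only where the double knockdown was compared with another group. The other comparisons were fitted together on the control and single siRNA groups, so that calls under this setting are not like for like across comparisons. The interaction has no such fit, and replicate number has neither that nor a fit without the block. For the double knockdown against control siRNA the 0 calls became 8 with the 2 groups alone, 1 with DESeq2, and 0 to 3 when a replicate number or library was left out (3 without HIF2A siRNA replicate 2). With the length and GC trend removed, 1 member passed in the double knockdown against HIF2A siRNA, 1 in HIF1A siRNA against HIF2A siRNA, and 16 in place of 31 for replicate number. That last count ranged from 0 (without replicate 3) to 35 with libraries left out. The median of HIF1A siRNA against HIF2A siRNA, 0.047, ranged from -0.066 (without HIF1A siRNA replicate 1) to 0.111. The median of the double knockdown against control siRNA ranged from 0.096 to 0.243 with libraries left out and was 0.084 with the trend removed, as against 0.180. The cause of these shifts was not tested. With libraries left out, NDUFA6 with HIF2A siRNA ranged from -0.42 to 0.20, above 0 without replicate 2 (0.20) or its HIF2A siRNA (0.14) or control (0.05) library alone, and NDUFB10 from -0.42 to 0.05. NDUFA10 in the double knockdown ranged from -0.09 to 0.03 (0.01 without replicate 1, 0.03 without the control library of replicate 1), and was 0.06 with the trend removed. Without the replicate block, which pairs the libraries, 0 of the 37 passed in each of the 7 comparisons, and the median was 0.134 for HIF1A siRNA, 0.070 for HIF2A siRNA and 0.187 for the double knockdown against control siRNA. Where an arm kept fewer libraries, the spread was shared with the other groups. With 3 replicates the median 95% half-width in the double knockdown was 0.30 on the log2 scale before adjustment, and members with fitted values up to 0.51 did not pass the adjusted test. In the same fit AIFM1, outside the member list, passed at 0.39, so that detection depended on the spread of each gene. Not passing the test does not by itself show that a member was unchanged.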
